A study of Mus musculus with 126 samples.

Results

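The clustered protocadherin genes were followed through the 4 groups of an RNA-seq experiment on mouse embryonic stem cells. Members were all genes of the deposited count table whose symbol is Pcdha, Pcdhb or Pcdhg followed by an optional letter and a number. This gave 58 of the 23420 genes of the table, with 14 in the alpha, 22 in the beta and 22 in the gamma cluster. They lie on chromosome 18 of the mm10 build. The alpha genes span 36930285 to 37187660, the beta genes 37264998 to 37521419 and the gamma genes 37661945 to 37841872.

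Clustered protocadherins are cadherin-like adhesion proteins of the cell surface, best known from neurons. Each alpha and gamma gene has its own promoter and its own large first exon, which is spliced to constant exons shared by the whole cluster, whereas a beta gene is a single exon. A neuron uses a small and largely random choice of these promoters, while the C types at the end of the alpha and gamma clusters are used more uniformly. The combination marks the cell and lets its dendrites avoid one another. Ctcf and cohesin bind many of the promoters and their enhancers, and promoter methylation, set in the early embryo by Dnmt3b, and the repressor Smchd1 are known to hold clustered protocadherin genes silent.

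The series is about what DNA methylation and histone acetylation each contribute to where transcription factors bind, and 8 of its 126 samples are RNA-seq libraries. The wild type was the J1 line. TKO cells, given the same strain J1, carry Dnmt1-/-, Dnmt3a-/- and Dnmt3b-/-, so that they lack the enzymes that set and maintain DNA methylation. Whether the TKO cells are a single clone was not given in the sources used here. Cells of each genotype received either 5 ng/µl Trichostatin A (TSA), an inhibitor of histone deacetylases, or 0.0033% DMSO, its solvent, for 36 h. Culture in all groups was on gelatin, with leukaemia inhibitory factor and serum. Each of the 4 groups, wild type with DMSO, wild type with TSA, TKO with DMSO and TKO with TSA, had 2 libraries, described as biological replicates. The sources do not say whether they came from separate cultures, so p-values measure only the spread between these libraries, which may be technical. For 1 gene in 2 against 2 libraries, the smallest p of an exact permutation test is 0.333, and the p-values given here come instead from edgeR's quasi-likelihood model, which shares its estimate of the spread across genes.

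Total counts were between 13280631 and 15542527 per library, so 3 counts, taken here as the floor, stand for 0.183 to 0.243 normalised CPM, the count of a gene relative to its library's total after TMM scaling. The summed level of Dnmt1, Dnmt3a and Dnmt3b was between 866 and 1252 CPM in the wild type libraries and between 196 and 243 CPM in the TKO libraries, with no overlap. All 10 embryonic stem cell markers of the list were detected, Pou5f1 and Sox2 among them. Their summed level was lower in the TSA libraries (2198 to 2791 CPM) than in the DMSO libraries (4076 to 4989 CPM). Of the 10 markers, 8 fell with TSA in each genotype, where 25.9% of all tested genes fell in wild type and 27.9% in TKO; when libraries were scaled by total counts, 6 and 5 fell.

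The counts of the 3 clusters do not rest on the same kind of sequence. The 22 beta genes share no exon base with any other gene of the table, although they resemble each other in sequence. How reads that fit several genes were treated is not given in the sources used here, so counts of near-identical stretches are uncertain. Each alpha gene shares at least 2860 exon bases and each gamma gene at least 2109 with other genes. The fusion model Pcdha4-g, which has 2856 exon bases and 0 of its own, was listed at 0 counts in all 8 libraries. Pcdha4 keeps only 52 bases of its own and had at most 1 count in any library. The other alpha genes have 2346 to 2562 bases of their own and the gamma genes 2364 to 2961, which are mostly the variable first exon. The first exon of 13 of 14 alpha and 21 of 22 gamma genes lies inside an intron of another member. In ribosome-depleted total RNA, reads from unspliced transcripts of an upstream gene and reads from a first exon in use cannot be told apart.

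The gamma cluster held most of the protocadherin reads, and with TSA the alpha and beta sums were higher in both genotypes, while the gamma sum was lower in TKO under all 4 scalings and in wild type under 2 of 4. The summed beta level was 6.78 and 5.83 CPM in the libraries of wild type with DMSO, 16.6 and 11.4 in wild type with TSA, 5.61 and 5.16 in TKO with DMSO, and 8.05 and 9.35 in TKO with TSA. The summed alpha level was 3.28 and 1.62, 11.3 and 9.03, 2.12 and 1.53, and 9.20 and 8.41 CPM in the same order. The summed gamma level was 83.5 and 73.7, 69.2 and 62.2, 75.0 and 80.7, and 61.9 and 62.7 CPM. In each genotype the TSA libraries lay above the DMSO libraries for alpha and beta and, with this TMM scaling, below them for gamma. The ratio of the TSA mean to the DMSO mean was 4.15 in wild type and 4.83 in TKO for alpha, 2.22 and 1.62 for beta, and 0.836 and 0.80 for gamma. Scaled by total counts, an alternative for these sums chosen after seeing the data, the gamma sum in wild type was 78.4 and 68.5 CPM with DMSO and 73.9 and 67.4 with TSA. These libraries overlapped, with a ratio of 0.962, and they also overlapped with upper quartile scaling (0.927). In TKO the gamma ratio was 0.886 and 0.843 with these scalings, without overlap. With TMM the sum over all 58 genes had ratios of 1.03 and 0.938. The gamma share of the protocadherin counts (mean of 2 libraries) was 90.0% in wild type with DMSO, 73.3% in wild type with TSA, 91.5% in TKO with DMSO and 78.1% in TKO with TSA. No p is given for these sums. In bulk RNA, fewer cells that use a gene and less RNA of it per cell cannot be told apart.

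**Figure D1:**
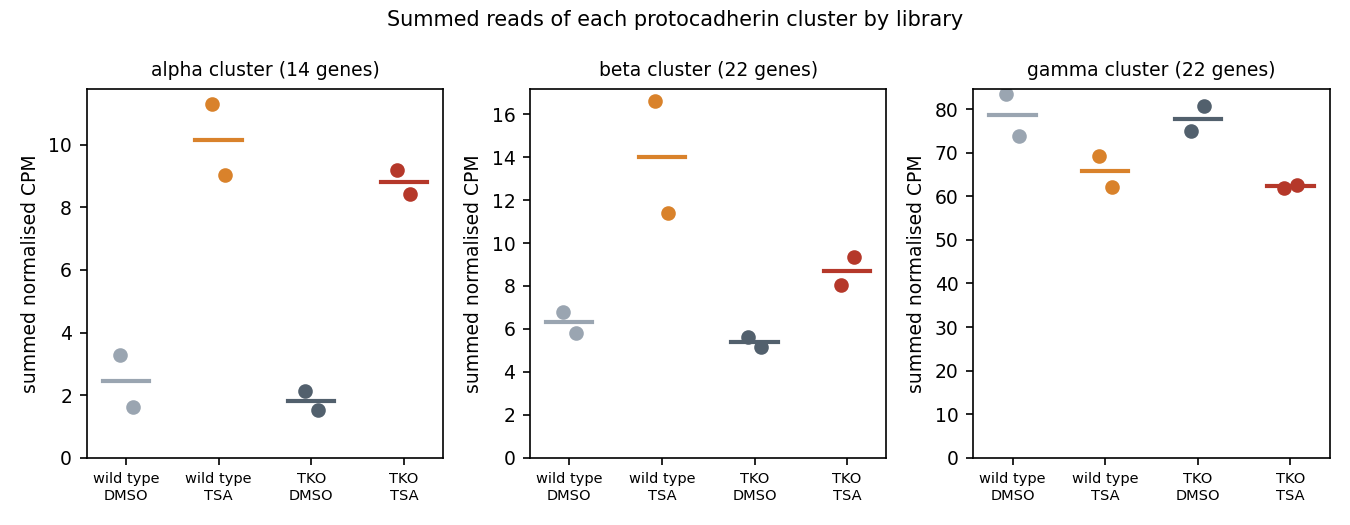
Summed normalised CPM of the alpha, beta and gamma genes (y axes, linear from 0) in the 4 groups. Points are libraries, scaled by TMM, and bars are means of 2 libraries. In each genotype the TSA libraries are above the DMSO libraries for alpha and beta; they are below them for gamma, which in wild type did not hold when libraries were scaled by total counts or by the upper quartile.

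Levels between genes were compared per kilobase of a gene's own exon bases. In wild type with DMSO the median was 1.18 CPM per kilobase over the 22 gamma genes, 0.0640 over the alpha genes without Pcdha4 and 0.0396 over the 22 beta genes. Pcdhga1, the first gene of the gamma cluster, and Pcdhgc3, a C type that is also used outside the nervous system, led with 4.19 and 3.78 CPM per kilobase. Pcdhga8 and Pcdhga11 followed at 2.32 each, and the lowest gamma gene was Pcdhga6 at 0.373. Pcdhga1 and Pcdhgc3 overlapped in their libraries in this group, with 9.42 and 10.9 CPM against 11.1 and 8.26 CPM and similar own lengths. Among beta genes Pcdhb22 (0.580), Pcdhb2 (0.317) and Pcdhb14 (0.267 CPM per kilobase) stood above the rest, the next being Pcdhb18 at 0.109. The highest alpha genes were Pcdha10, Pcdha9 and Pcdha7 at 0.169, 0.162 and 0.156 CPM per kilobase, and their libraries overlapped. With TSA the median of CPM per kilobase was 0.151 for beta and 0.214 for alpha genes in wild type. In TKO it was 0.0426 and 0.0296 with DMSO and 0.0814 and 0.205 with TSA.

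The beta genes come first because their counts are their own. Many of them were higher with TSA in wild type, from levels near the floor. Of the 22 genes, 15 had both TSA libraries above both DMSO libraries and 0 had them below. Over all genes with a count, 36.4% were placed higher in this way and 30.7% lower. Pcdhb11 and Pcdhb16 were called by edgeR (adjusted p below 0.05 over 15822 genes), among 6 beta genes with enough counts to be tested, where 27.0% of all tested genes were called higher and 25.9% lower. A gene near the floor passes the count filter only through the group in which it is high, so the calls were also made without a filter. Then 6 of 22 beta genes rose, Pcdhb1, Pcdhb4, Pcdhb6, Pcdhb11, Pcdhb16 and Pcdhb20, and 0 fell, where 21.3% of all genes were called higher and 20.1% lower. Among the 25% of tested genes with the lowest mean CPM, 38.9% were called higher and 7.41% lower, so calls in weak genes of any kind were more often upward.

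Pcdhb11 (37421418 to 37425032) had the lowest adjusted p of the tested beta genes in wild type. Its counts were 3 and 1 in wild type with DMSO, 14 and 17 with TSA, 2 and 1 in TKO with DMSO, and 9 and 8 with TSA. All 4 TSA libraries were above all 4 DMSO libraries. In wild type the log2 fold change was 2.66 ± 0.60 (SE, edgeR adjusted p 0.00370). The ratio of the pooled counts per pooled scaled library size was 6.57, with a 95% counting interval of 2.32 to 25.6. In TKO the log2 fold change was 2.30 ± 0.70 (edgeR adjusted p 0.0155), with a ratio of 5.23 (1.51 to 27.9). Pcdhb16 had 4 and 2, 18 and 12, 2 and 5, and 5 and 11 counts in the same order of groups. It rose in wild type (2.04 ± 0.62, edgeR adjusted p 0.0168), while in TKO the libraries overlapped (1.05 ± 0.66, edgeR adjusted p 0.196). Leaving out 1 library at a time changed the number of beta calls in wild type from 2 to between 1, without the first TSA library, and 5, without the second TSA library or without any of the 4 TKO libraries.

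In TKO, more beta genes were higher than lower with TSA. Of the 22, 10 were higher without overlap and 2 lower, Pcdhb14 and Pcdhb21, against 38.4% and 33.3% of all genes with a count. Pcdhb21 had only 2 and 2 counts with DMSO and 1 and 2 with TSA, a ratio of 0.693 (95% counting interval 0.10 to 4.09). Pcdhb2 and Pcdhb11 were called higher and Pcdhb14 lower, where 30.8% of all tested genes were called higher and 27.9% lower. Without the filter Pcdhb3 joined the genes that rose, which gave 3 of 22 higher and 1 lower beside 23.7% and 22.9% of all genes. Among the 25% of tested genes with the lowest mean CPM, 40.5% were called higher and 12.5% lower in TKO. Pcdhb2 had 11 and 12 counts in wild type with DMSO, 26 and 11 with TSA, 1 and 6 in TKO with DMSO, and 13 and 25 with TSA. Its log2 fold change with TSA was 2.28 ± 0.69 in TKO (edgeR adjusted p 0.0145) and 0.43 ± 0.55 in wild type (edgeR adjusted p 0.534). The TKO with DMSO libraries stood below the other 6. With 1 library left out, the number of beta calls in TKO was between 2 and 5, and the 5 came without either wild type DMSO library or without the second wild type TSA library.

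Pcdhb14 (37447657 to 37451094) was the beta gene called lower in TKO. Its counts were 11 and 13 in wild type with DMSO, 27 and 20 with TSA, 28 and 21 in TKO with DMSO, and 10 and 15 with TSA. Wild type with TSA and TKO with DMSO were both above wild type with DMSO in CPM, and TKO with TSA overlapped it. With TSA it fell in TKO (log2 fold change -1.08 ± 0.38, edgeR adjusted p 0.0292), whereas in wild type the value was 0.72 ± 0.38 (edgeR adjusted p 0.136). The test of that difference gave -1.80 ± 0.54, which did not pass (edgeR adjusted p 0.145). The fall in TKO lost its call when libraries were scaled by total counts, with DESeq2, and without any 1 of the 4 TKO libraries. In TKO with DMSO Pcdhb14 made up 32.0% of the beta counts (49 of 153, exact 95% interval 24.7 to 40.0%), against 14.4% in wild type with DMSO (24 of 167, 9.43 to 20.6%). Intervals on shares and ratios cover counting error only.

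Pcdhb22 (37518353 to 37521419), the last beta gene and the strongest in wild type, was at 2.43 and 1.13 CPM in wild type with DMSO, 2.44 and 1.16 with TSA, 1.09 and 1.02 in TKO with DMSO, and 1.35 and 0.816 with TSA. The libraries of a wild type group differed by more than the group means did, and the log2 fold change with TSA was 0.01 ± 0.46 in wild type and 0.03 ± 0.53 in TKO (edgeR adjusted p 0.986 and 0.966). Without Pcdhb22 the TSA to DMSO ratio of the sum was 2.70 in wild type and 1.76 in TKO, and without Pcdhb22 and Pcdhb14, a pair chosen after their values were seen, it was 2.97 and 2.61. Pcdhb9 and Pcdhb21 stayed at 2 counts or fewer in every library.

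**Figure D2:**
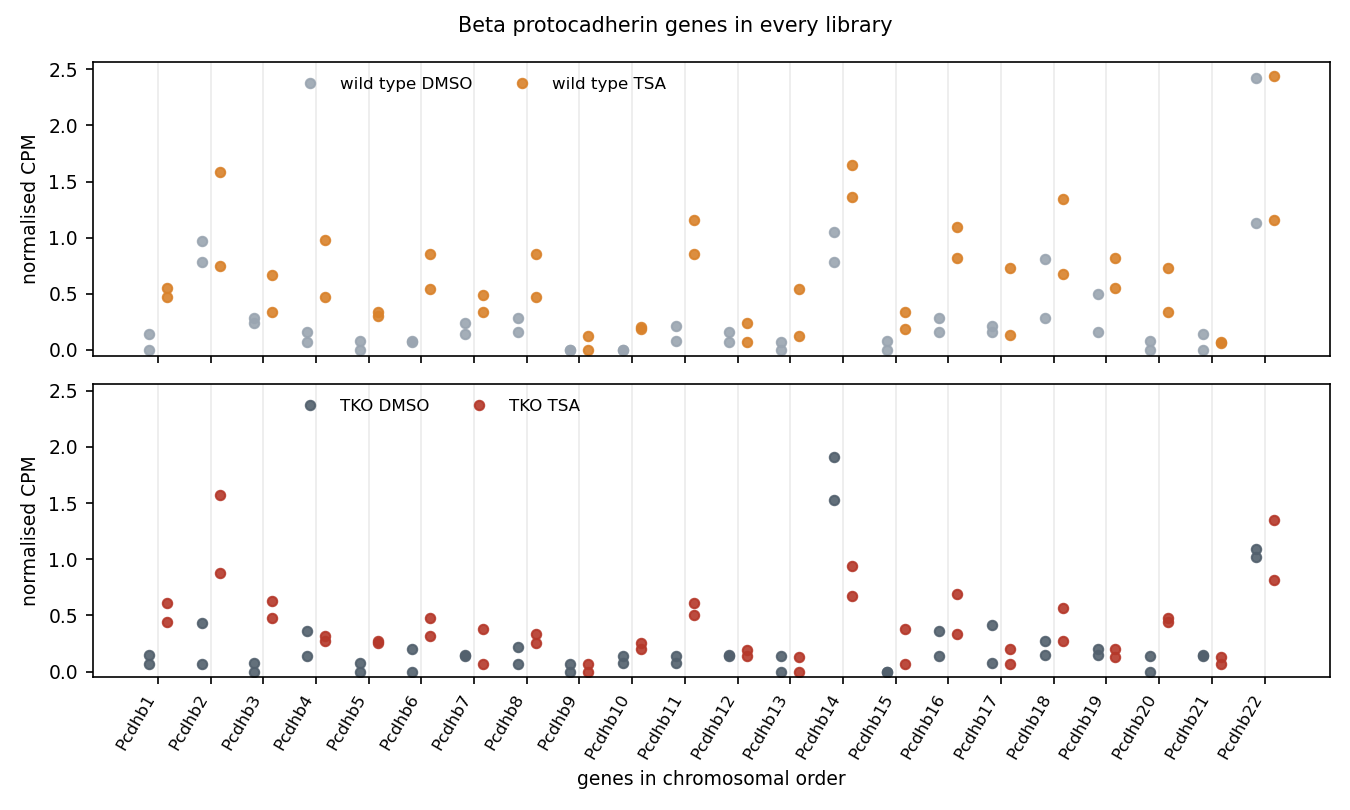
Normalised CPM (y axis, linear) of the 22 beta genes in chromosomal order (x axis), for wild type above and TKO below. Each point is a library, with 2 libraries per treatment. In wild type the TSA points lie above the DMSO points for 15 of 22 genes, and in TKO Pcdhb14 lies lower with TSA while Pcdhb22 overlaps in both genotypes.

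Every alpha gene called between TSA and DMSO was higher with TSA. Without overlap, 10 of 14 were higher with TSA in wild type and 9 of 14 in TKO, and 0 were lower in either. Pcdha6, Pcdha7, Pcdha8 and Pcdha10 were called higher in both genotypes, and Pcdha9 in TKO, among 6 tested alpha genes. Of all genes with a count, 36.4% in wild type and 38.4% in TKO were higher without overlap. Of tested genes 27.0% and 30.8% were called higher, and 38.9% and 40.5% among the 25% with the lowest mean CPM. Without the filter, 5 of 14 rose in wild type, with Pcdha3 added, and 7 of 14 in TKO, with Pcdha3 and Pcdha11 added, and 0 fell. The shares of all genes called higher without it were 21.3% and 23.7%. Pcdha1, Pcdha4 and Pcdha12 overlapped between treatments in both genotypes.

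Pcdha6 (36967756 to 37187657) had 2 and 2 counts in wild type with DMSO, 30 and 31 with TSA, 3 and 0 in TKO with DMSO, and 14 and 19 with TSA. The ratio of TSA to DMSO was 12.9 in wild type (95% counting interval 4.80 to 48.9, edgeR adjusted p 0.000664) and 10.2 in TKO (3.19 to 51.8, edgeR adjusted p 0.00238). Every TSA library was above every DMSO library. Pcdha7 (36973924 to 37187657) had 8 and 2, 34 and 23, 3 and 1, and 26 and 31 counts. Its ratio was 4.83 in wild type (2.45 to 10.6) and 13.2 in TKO (4.87 to 49.9). The adjusted p by edgeR was 0.00379 and 0.000433. Pcdha8 (36992467 to 37187657) had 2 and 1, 16 and 13, 1 and 2, and 17 and 15 counts, so that its DMSO libraries were all under the floor of 3 counts. Its ratio was 8.19 in wild type (2.54 to 42.0, edgeR adjusted p 0.00230) and 9.85 in TKO (3.08 to 50.3, edgeR adjusted p 0.000921). With TSA, Pcdha7 and Pcdha8 overlapped between the genotypes, while for Pcdha6 both TKO libraries were below both wild type libraries (log2 difference -0.87 ± 0.42, edgeR adjusted p 0.174).

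Pcdha9 (36997880 to 37187657) had 9 and 2 counts in wild type with DMSO, 15 and 9 with TSA, 0 and 0 in TKO with DMSO, and 10 and 12 with TSA. Neither library of TKO with DMSO had a count. Against the floor of 3 counts per library, TKO with TSA was at least 3.38-fold higher than TKO with DMSO (edgeR adjusted p 0.00226). With DMSO the wild type mean was 1.90-fold above the floor in TKO (edgeR adjusted p 0.0265 for the genotype difference). The wild type level rests on 9 counts in the first library and 2 in the second. The second is itself under the floor, so the 1.90-fold is no lower bound. The genotype difference was not called without the first wild type DMSO library, without either TKO DMSO library, or by DESeq2. In wild type the TSA libraries overlapped the DMSO libraries (log2 fold change 0.88 ± 0.61, edgeR adjusted p 0.245).

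**Figure D3:**
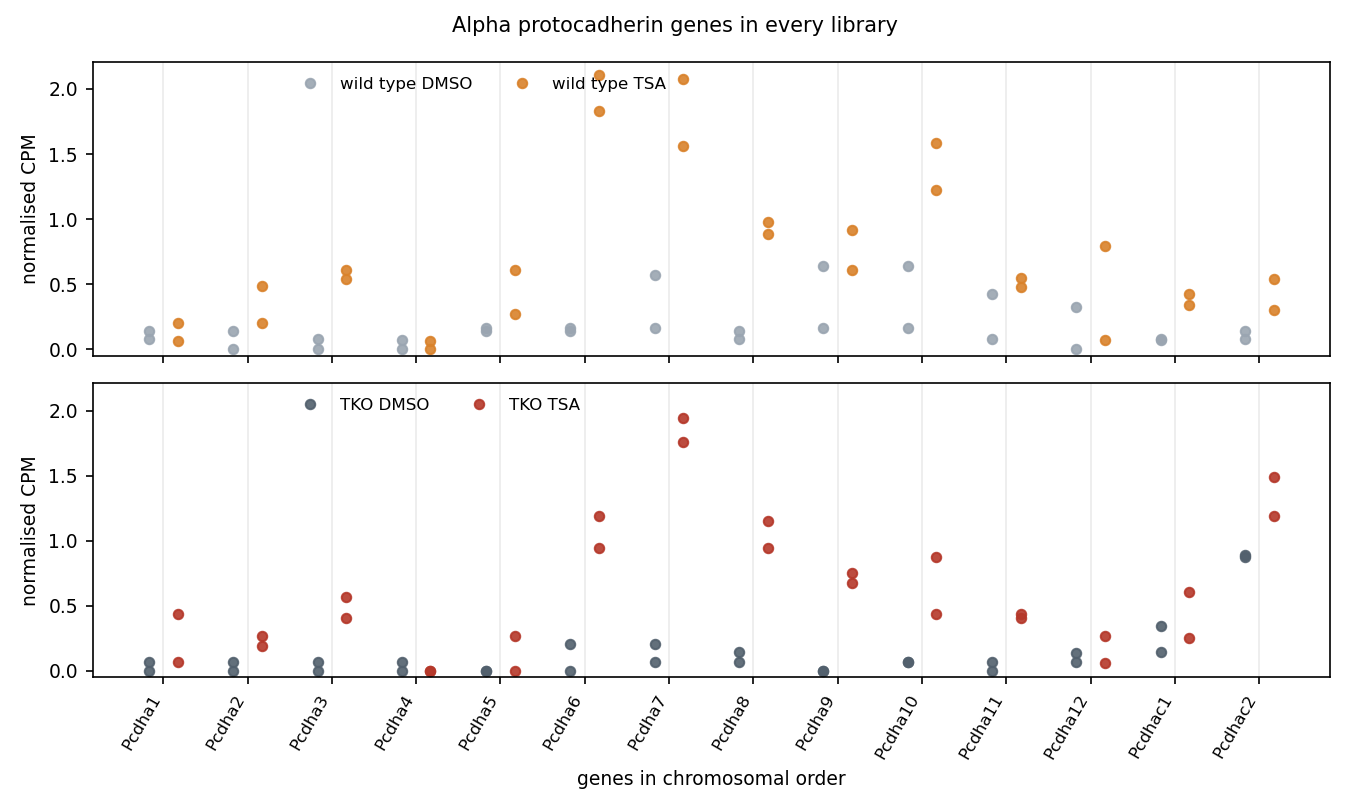
Normalised CPM (y axis, linear) of the 14 alpha genes in chromosomal order (x axis), for wild type above and TKO below, with a point per library and 2 libraries per treatment. TSA points are above DMSO points for Pcdha6, Pcdha7 and Pcdha8 in both genotypes, and Pcdhac2 is higher in TKO than in wild type under both treatments.

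Gamma genes had log2 fold changes above and below 0 with TSA, and the balance of their calls depended on the scaling. With TMM 0 rose in wild type and 5 of 22 fell, Pcdhga1, Pcdhga8, Pcdhga11, Pcdhgb8 and Pcdhga12. In TKO 6 fell, Pcdhga1, Pcdhga7, Pcdhga8, Pcdhgb7, Pcdhga11 and Pcdhgb8, and Pcdhga5 rose. All 22 passed the filter, with 10 to 160 counts per library. The shares of tested genes called were those given with the beta genes, so the count of gamma genes called lower is near the background in both genotypes. When libraries were scaled by total counts, 3 gamma genes were called higher and 3 lower in each genotype, beside 36.7% and 15.4% of tested genes in wild type and 37.3% and 20.7% in TKO. Those called higher were Pcdhga3, Pcdhgb2 and Pcdhga5 in wild type and Pcdhgb2, Pcdhga5 and Pcdhga6 in TKO. Pcdhga1, Pcdhga8 and Pcdhga11 in wild type and Pcdhga8, Pcdhga11 and Pcdhgb8 in TKO were called lower under all 4 scalings. Without overlap and with TMM, 8 were lower and 5 higher in wild type, beside 30.7% and 36.4% of all genes with a count, and 13 lower and 4 higher in TKO, beside 33.3% and 38.4%. The median log2 fold change of the 22 genes was -0.21 in wild type and -0.49 in TKO, beside 0.01 and 0.04 over all tested genes, and scaled by total counts -0.01 and -0.34 beside 0.22 and 0.19.

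Pcdhgb8 (37761801 to 37841872) had the lowest TSA to DMSO value of the cluster in both genotypes. Its level was 2.14 and 2.43 CPM in wild type with DMSO, 1.34 and 0.679 with TSA, 2.80 and 3.13 in TKO with DMSO, and 0.744 and 0.879 with TSA. All 4 TSA libraries were below all 4 DMSO libraries. The log2 fold change was -1.15 ± 0.37 in wild type (edgeR adjusted p 0.0221) and -1.86 ± 0.37 in TKO (edgeR adjusted p 0.00139). The wild type call was lost when libraries were scaled by total counts, by DESeq2, and without the second library of either wild type group.

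Pcdhga11 (37755773 to 37841872), the gene before it, was at 6.28 and 5.75, 3.54 and 2.99, 5.20 and 4.95, and 2.71 and 1.63 CPM in the same order. It fell by 0.88 ± 0.26 on the log2 scale in wild type (edgeR adjusted p 0.0155) and by 1.23 ± 0.28 in TKO (edgeR adjusted p 0.00292). Pcdhga8 (37725706 to 37841872) was at 5.78 and 6.32, 3.05 and 3.33, 4.38 and 6.04, and 3.18 and 2.70 CPM, and fell by 0.92 ± 0.25 (edgeR adjusted p 0.00911) and 0.82 ± 0.25 (edgeR adjusted p 0.0150). For both genes all TSA libraries were below all DMSO libraries. In wild type the call of Pcdhga11 was lost without the first DMSO or the second TSA library, and that of Pcdhga8 without the first TSA library. Pcdhga1 (37661945 to 37841870) went from 9.42 and 10.9 to 5.74 and 6.52 CPM in wild type and from 10.6 and 11.6 to 6.97 and 7.72 in TKO. Its falls, by 0.72 ± 0.18 and 0.60 ± 0.18, had adjusted p-values of 0.00715 and 0.0144 by edgeR, the second of which was lost with 1 of the 4 scalings.

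Some genes near the start of the cluster had values above 0. Pcdhga5 (37694501 to 37841870) was at 2.43 and 1.38 CPM in wild type with DMSO, 3.36 and 3.40 with TSA, 2.05 and 2.40 in TKO with DMSO, and 3.38 and 4.83 with TSA, so the treatments did not overlap. It rose by 0.89 ± 0.32 in TKO (edgeR adjusted p 0.0312), and its value in wild type, 0.81 ± 0.33, did not pass with TMM (edgeR adjusted p 0.0578) and passed under 2 of 4 scalings. Pcdhgb2 (0.45 ± 0.25 and 0.54 ± 0.24) and Pcdhga6 (0.61 ± 0.39 and 0.91 ± 0.40) were higher without overlap in both genotypes and not called with TMM (edgeR adjusted p 0.0664 to 0.206). Pcdhgb2 was called under 1 of 4 scalings in wild type and 2 in TKO, Pcdhga6 under 1 in TKO, and Pcdhga3 under 3 in wild type. Along the 19 gamma A and B genes, later genes tended to have lower log2 fold changes. Pearson's r with the order was -0.52 in wild type and -0.63 in TKO (Spearman's rho -0.51 and -0.67), beside 0.04 for TKO against wild type in DMSO. It was -0.36 (rho -0.35) for TKO against wild type in TSA and -0.37 (rho -0.34) for the difference between the TSA responses. These comparisons share libraries. This is a description across genes of the same libraries that share introns and constant exons. From Pcdhga7 on, a split chosen after the values were seen, the median over the 11 A and B genes was -0.50 for wild type and -0.82 for TKO, and 10 and 11 of them were below 0. The signs of Pcdhgb1, Pcdhga4, Pcdhgb5, Pcdhgb7 and Pcdhgc5 in wild type and of Pcdhga2 in TKO, none of them called, changed with the scaling. Leaving out 1 library took the alpha and gamma calls from 9 to 5 in wild type, without the first TSA library, and from 12 to 6 in TKO, without the second DMSO library.

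**Figure D4:**
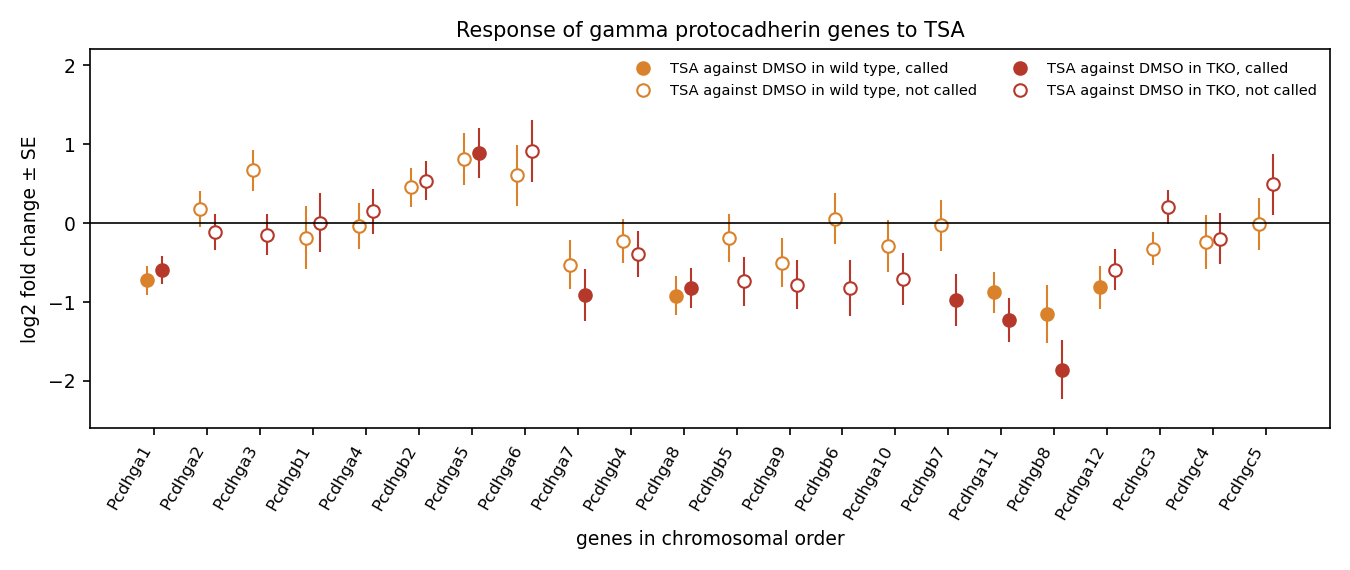
Log2 fold change of TSA against DMSO with its SE (y axis) with TMM scaling for the 22 gamma genes in chromosomal order (x axis), in wild type and in TKO. Filled points are called by edgeR at an adjusted p below 0.05 and open points are not; Pcdhga5 is the only filled point above 0, and Pcdhgb8 is the lowest in both genotypes.

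The C types were described for all 5 genes because their use differs from that of the other members. Pcdhac2 (37143969 to 37187657), the alpha C type required for the spacing of serotonergic axons, was the only member called between the genotypes under both treatments. It had 2 and 1 counts in wild type with DMSO, 5 and 8 with TSA, 13 and 12 in TKO with DMSO, and 22 and 19 with TSA. The groups did not overlap in any of these comparisons. In DMSO TKO exceeded wild type with a ratio of 7.74 (95% counting interval 2.36 to 40.1; log2 fold change 2.86 ± 0.64, edgeR adjusted p 0.00962). In TSA the ratio was 3.19 (1.68 to 6.50; 1.65 ± 0.44, edgeR adjusted p 0.0247). Neither call was made by DESeq2. The first was lost without the first wild type DMSO library or the second TKO DMSO library, and the second without any 1 of the 4 TSA libraries. With TSA the log2 fold change was 1.81 ± 0.73 in wild type (edgeR adjusted p 0.0554, called under 2 of 4 scalings) and 0.60 ± 0.40 in TKO (edgeR adjusted p 0.215). Pcdhac2 gave 25 of the 52 alpha counts in TKO with DMSO (48.1%, exact 95% interval 34.0 to 62.4%) and 3 of 66 in wild type with DMSO (4.55%, 0.947 to 12.7%).

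The neighbouring Pcdhac1 had 1 and 1, 7 and 5, 5 and 2, and 9 and 4 counts and was not tested by the filtered fit. Pcdhgc3 (37806410 to 37841872) was at 11.1 and 8.26, 7.94 and 7.54, 6.63 and 6.76, and 8.72 and 6.71 CPM. Wild type with DMSO had the highest mean, and the log2 difference of TKO from wild type in DMSO, -0.54 ± 0.21, did not pass (edgeR adjusted p 0.100). Pcdhgc4, which many inhibitory interneurons need to survive, was at 1.71 and 1.62, 1.65 and 1.16, 1.78 and 1.89, and 1.76 and 1.44 CPM. Pcdhgc5, a late gene of brain development, was at 2.21 and 2.19, 2.38 and 1.97, 1.44 and 0.727, and 1.56 and 1.51 CPM. All 4 TKO libraries of Pcdhgc5 lay below all 4 wild type libraries, with log2 differences of -1.01 ± 0.37 in DMSO (edgeR adjusted p 0.0790) and -0.51 ± 0.34 in TSA (edgeR adjusted p 0.333).

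**Figure D5:**
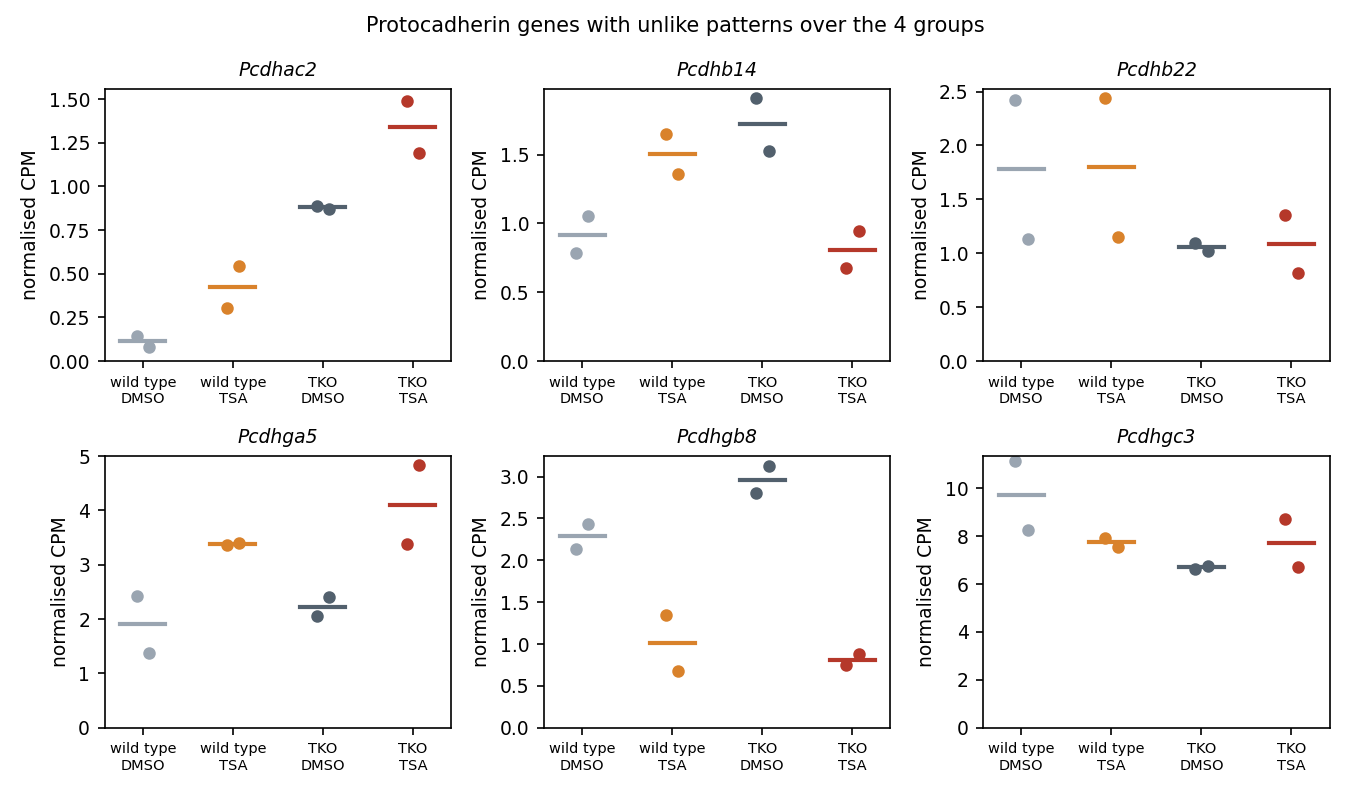
Normalised CPM (y axes, linear from 0) of 6 genes in the 4 groups, with a point per library and a bar for the mean of 2 libraries. Pcdhac2 is higher in TKO, Pcdhb14 libraries lie above those of wild type with DMSO after either change alone though edgeR called neither difference, Pcdhb22 varies within wild type, Pcdhga5 is higher and Pcdhgb8 lower with TSA, and Pcdhgc3 has its highest mean in wild type with DMSO.

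Few members were called between TKO and wild type cells in the absence of TSA. Any other differences between these cells cannot be told apart here from the loss of the methyltransferases. In DMSO, the comparison of TKO with wild type gave Pcdhac2 higher and Pcdha9 lower among the 34 tested members, beside 9.62% of tested genes called higher and 10.7% lower. The beta genes gave 0 calls by edgeR, DESeq2 and limma-voom. At an unadjusted p below 0.05 there were 2, Pcdhb2, lower in TKO (log2 difference -1.79 ± 0.74), and Pcdhb14, higher (0.91 ± 0.38), with edgeR adjusted p-values of 0.116 and 0.119. The gamma genes gave 0 calls by the same 3 tools and 2 at an unadjusted p below 0.05, Pcdhgc3 and Pcdhgc5, both lower in TKO. Without overlap, 2 of 22 beta genes were higher and 4 lower, and 2 of 14 alpha genes higher and 5 lower, beside 25.6% and 25.4% of all genes. The summed beta ratio of TKO to wild type was 0.854 and the summed gamma ratio 0.990. For alpha the ratio was 0.74, with sums that overlapped between the groups. Leaving out 1 library moved the number of alpha and gamma calls from 2 to 0 (without the first wild type or the second TKO library), 1 (without the first TKO library) or 4 (without the second wild type library).

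With TSA in both genotypes, Pcdhac2 was the only member called between TKO and wild type, where 10.0% of tested genes were called higher and 8.38% lower. Beta genes gave 0 calls by edgeR, DESeq2 and limma-voom, and Pcdhb14 alone had an unadjusted p below 0.05 (log2 difference -0.89 ± 0.38, edgeR adjusted p 0.131). Of the 22 beta genes, 9 were lower in TKO without overlap and 0 higher, beside 27.3% and 28.2% of all genes with a count. Some of them rest on few reads. Pcdhb5 had 4 and 4 counts in TKO and 5 and 5 in wild type, a ratio of 0.81 (95% counting interval 0.278 to 2.28). The ratio of the beta sums was 0.621. Gamma genes also gave 0 calls by the 3 tools, with Pcdhgb6 alone at an unadjusted p below 0.05 (-0.87 ± 0.35, edgeR adjusted p 0.104).

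Whether the TSA response differed between genotypes was tested by the interaction, the log2 fold change with TSA in TKO less the one in wild type. It was called for 0 of 34 members by edgeR, DESeq2 and limma-voom, beside 1.35% of all tested genes. An unadjusted p below 0.05 was reached by 3, Pcdha9, whose size is not given because of its 0 counts in TKO with DMSO, Pcdhb14 (-1.80 ± 0.54) and Pcdhga3 (-0.81 ± 0.37). Their adjusted p by edgeR was 0.161, 0.145 and 0.338. Members called in 1 genotype and not in the other are thus not shown to differ between genotypes.

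Wild type with DMSO was also compared with TKO with TSA, where both changes are present. This gave 4 alpha genes higher, Pcdha6, Pcdha7, Pcdha8 and Pcdhac2, and 1 beta gene, Pcdhb11, higher in the latter, beside 31.7% of tested genes called higher and 30.2% lower. Pcdhb11 was not called when the filter was left out (edgeR adjusted p 0.0629). Pcdhac2 had its largest difference here, with a ratio of 11.7 (95% counting interval 3.74 to 59.2, edgeR adjusted p 0.000450). Pcdhga5 and Pcdhgb2 were higher (1.10 ± 0.32 and 0.64 ± 0.25, edgeR adjusted p 0.0122 and 0.0400), and Pcdhga1, Pcdhga7, Pcdhga8, Pcdhga11 and Pcdhgb8 lower. Pcdhga7 (37714834 to 37841872) was at 4.42 and 2.75 CPM in wild type with DMSO and 1.89 and 1.38 in TKO with TSA, a log2 difference of -1.14 ± 0.33 (edgeR adjusted p 0.00999). It was not called without the first wild type DMSO library or the second TKO TSA library. The alpha and gamma calls went from 11 to 7 without the second TKO TSA library. The beta calls went from 1 to 0 without the first wild type DMSO library, the first wild type TSA library or either TKO TSA library, and to 3 and 2 without the first and the second TKO DMSO library. This comparison shares its libraries with those above and adds no independent support to them.

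Genes known to organise or silence the clusters were read beside the members. Of 12 listed genes of Ctcf and cohesin, 5 fell and 1 rose with TSA in wild type, where 25.9% of all tested genes fell and 27.0% rose. In TKO 6 fell and 0 rose, where 27.9% fell and 30.8% rose. Scaled by total counts, 4 fell and 2 rose in wild type, beside 15.4% and 36.7%, and 2 fell and 1 rose in TKO, beside 20.7% and 37.3%. Ctcf, which binds protocadherin promoters and enhancers, was at 212 and 225 CPM in wild type with DMSO, 147 and 142 with TSA, 195 and 163 in TKO with DMSO, and 128 and 107 with TSA. It fell by 0.59 ± 0.11 and 0.61 ± 0.11 on the log2 scale (edgeR adjusted p 0.00141 and 0.000940). Smc1a, Stag1, Stag2 and Pds5a, cohesin subunits and a cohesin regulator, had log2 fold changes between -0.76 and -0.30 and were called in both genotypes. Under all 4 scalings their direction held, while the call was lost in 2 scalings for Pds5a in wild type and in 1 for Pds5a, Smc1a and Stag2 in TKO. Ctcfl, the germline relative of Ctcf, rose with TSA in wild type (1.38 ± 0.32, edgeR adjusted p 0.00436) and was higher in TKO with DMSO (3.51 ± 0.29, edgeR adjusted p 2.43e-05). Stag2 was the 1 gene of the list called lower in TKO with DMSO than in wild type with DMSO.

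Of 11 listed silencing genes, 7 fell and 1 rose with TSA in wild type, and 5 fell and 3 rose in TKO, beside the same shares of 25.9% and 27.0% and of 27.9% and 30.8%. Scaled by total counts, 3 fell and 1 rose in wild type and 4 fell and 3 rose in TKO. In wild type Setdb1 was called lower under 1 of 4 scalings and Wiz under 2. Rest, a repressor of neuronal genes, went from 457 and 568 to 204 and 187 CPM in wild type and from 445 and 475 to 171 and 152 in TKO, falling by 1.39 ± 0.12 and 1.51 ± 0.12 (edgeR adjusted p 1.47e-05 and 4.04e-06). Trim28, the co-repressor that recruits Setdb1, fell by 0.75 ± 0.08 and 0.80 ± 0.08 (edgeR adjusted p 5.87e-05 and 2.12e-05). Smchd1 fell in wild type and rose in TKO. It was at 259 and 278 CPM in wild type with DMSO and 230 and 214 with TSA (-0.27 ± 0.10, edgeR adjusted p 0.0326, called in 2 of 4 scalings), and at 266 and 240 CPM in TKO with DMSO and 336 and 303 with TSA (0.34 ± 0.10, edgeR adjusted p 0.0107). The test of the difference gave 0.61 ± 0.14 (edgeR adjusted p 0.0576). Between TKO and wild type in DMSO edgeR called 0 of the 11. The part of these genes in the protocadherin values was not tested.

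Partners of protocadherin proteins were mixed, with 5 of 13 higher and 3 lower with TSA in wild type and 6 and 3 in TKO, and the shares of all tested genes are again those given with the cohesin genes. The receptor kinase Ret, which protocadherins bind, rose by 2.17 ± 0.33 and 2.51 ± 0.31 (edgeR adjusted p 0.000356 and 6.01e-05). Fyn and Ptk2b, kinases tied to protocadherin signalling, rose in both genotypes by 0.65 to 1.16. Nckap1 fell by 0.73 ± 0.08 and 0.95 ± 0.08 (edgeR adjusted p 6.32e-05 and 7.48e-06). Cyfip1 fell by 0.58 ± 0.10 and 0.55 ± 0.10 (edgeR adjusted p 0.000590 and 0.000608). Of 34 other genes within 500 kb of the clusters, 32 were tested, and 6 were called higher and 12 lower with TSA in wild type and 6 and 11 in TKO, with medians of -0.02 and -0.02. Scaled by total counts, 10 were called higher and 9 lower in wild type and 8 and 10 in TKO. Taf7, picked here because it lies between the beta and gamma genes, gave 0.22 ± 0.10 in wild type (edgeR adjusted p 0.0898) and -0.06 ± 0.10 in TKO (edgeR adjusted p 0.617), where its sign changed with the scaling.

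Markers of other cell types were read beside these values. Of 12 neuronal markers, 11 of them tested, 2 rose and 4 fell with TSA in wild type, and 5 rose and 3 fell in TKO. The summed level of the 12 was 529 to 635 CPM in wild type with DMSO and 288 to 349 with TSA. In TKO it was 522 to 556 CPM with DMSO and 392 to 424 with TSA. Stmn2, Tubb3 and Nefl weighed most in this sum in wild type with DMSO, with means of 214.4, 160.5 and 139 CPM. The median log2 fold change of the tested markers with TSA was 0.32 in wild type and 0.48 in TKO. Of 6 neural progenitor markers, 5 of them tested, 1 rose and 3 fell in wild type, and 2 rose and 2 fell in TKO. Of 8 fibroblast or mesenchymal markers, 7 of them tested, 5 rose and 1 fell in wild type and 7 rose in TKO. The fall in wild type, that of Col3a1, was called under 2 of 4 scalings. Summed levels of these markers were 39.7 to 46.7, 87.0 to 103, 21.5 to 22.6 and 48.4 to 72.1 CPM in the 4 groups. Of 6 endoderm markers, all tested, 1 rose with TSA in each genotype, and 4 were higher in TKO than in wild type with DMSO. Of all tested genes, 27.0% rose and 25.9% fell with TSA in wild type, and 30.8% rose and 27.9% fell in TKO. Between the genotypes in DMSO, 9.62% of tested genes were higher in TKO. None of these markers was at 0 in all 8 libraries, and Dcn was at 0 in both libraries of TKO with TSA. The part of these cell types in the alpha and beta values was not tested.

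The 5 genes whose pattern was most like the summed beta level, by Pearson's r of log2 CPM over 8 libraries, were Lypd3 (0.981), D10Bwg1379e (0.975), Dusp18 (0.974), 2900026A02Rik (0.974) and Abat (0.974), and 10.2% of 15788 tested genes that are no members had an r above 0.8. These points share the 8 libraries and their depths. Abat, which breaks down the transmitter GABA, was at 5.64 and 5.10, 15.4 and 12.2, 4.17 and 3.93, and 8.99 and 9.04 CPM in the order of groups used above. It was highest in wild type with TSA, as was the beta sum, which follows from its being picked for likeness to that sum.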

How the data were processed

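The authors deposited raw read counts per gene for the 8 RNA-seq libraries, with exon coordinates and summed exon length in bases. Per the submitters' processing notes, TopHat2 2.0.13, featureCounts 1.4.5-p1 and edgeR 3.22.3 were used with mm10. Settings, strand use and the treatment of reads that overlap several genes are not given in the sources used here. All columns of the table matched a labelled library. Exon bases that a gene shares with no other gene were counted from the deposited exons. Members were summed only for description.

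Counts were tested in R 4.3.3 with edgeR 4.0.16. The filterByExpr filter (minimum count 10) kept 15822 genes, 34 of the 58 members among them, and 24 members were described by counts or by the fit without a filter. TMM factors scaled the libraries. The quasi-likelihood fit had 1 mean per group and, over all 8 libraries, 4 residual degrees of freedom. Tests were two-sided, adjustment of p-values followed Benjamini and Hochberg over all genes tested, and a call was an adjusted p below 0.05. Each SE is approximate, being the log2 fold change divided by the root of its F statistic. The code was tested on simulated data. Alternatives used 3 other scalings, DESeq2 1.42.0, limma-voom (limma 3.58.1), 2 other filters, fits to the compared groups only, a replicate block, and each library left out in turn.

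The members and lists were chosen with earlier results of these data known. The naming rule gave values in every library for the 3 largest called changes without overlap in each direction of each contrast, for the 2 strongest beta and the 2 strongest other members, and for the C types; of the lists, Ctcf, Smchd1 and up to 5 called genes per contrast were named. Wapl was read under its older symbol, Wapal. Pcdhb2, Pcdhb16, Pcdhga5 and the other members named beyond this rule were chosen after their values were seen. A ratio for 1 gene is the pooled counts of a group per pooled TMM-scaled library size, over the same for the other group, with an exact 95% interval. Ratios of cluster sums are of mean CPM. Replicates of no group agreed within sampling noise (chi-square per degree of freedom 5.17 to 11.7), so each library counted once. Promoter and protein sequences were not analysed here.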

Additional observations from a re-analysis of the deposited data

How the results depend on the processing

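The counts of called members rest on few reads in the alpha and beta genes, and depth limits them: 24 members were under the filter. Beta calls for TSA in wild type went from 2 to 1 with DESeq2, 6 with no filter and 0 with at least 10 counts in 4 libraries, and those in TKO from 3 to 1 with DESeq2. For both changes together they went from 1 to 0 with DESeq2, 3 with no filter, 0 with at least 10 counts in 4 libraries and 0 when only the compared groups were fitted. The 3 were Pcdhb1, Pcdhb10 and Pcdhb20, while Pcdhb11, the gene called with the filter, was not among them (edgeR adjusted p 0.0629). The filters test fewer or more genes; the cause of the DESeq2 differences was not tested. Alpha and gamma calls for TKO in DMSO went from 2 to 0 with DESeq2, 1 with the stricter filter and 1 with the compared groups only, and for TKO in TSA from 1 to 0 with DESeq2.

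With 1 library left out, beta calls ranged from 1 to 5 (TSA in wild type), 2 to 5 (TSA in TKO), 0 to 0 (TKO in DMSO), 0 to 1 (TKO in TSA, Pcdhb19 without either wild type DMSO library), 0 to 3 (both changes) and 0 to 0 (interaction). Alpha and gamma calls ranged from 5 to 9, 6 to 12, 0 to 4, 0 to 1, 7 to 10 and 0 to 0 in the same order; the fewest came without the first wild type TSA library, the second TKO DMSO library (TSA in TKO) and the second TKO TSA library (both changes). Such fits test more weak beta genes, because the filter follows the smallest group, and they assume that a lone library varies like the others.

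Replicate numbers are shared between the groups, but with 2 pairs they do not show that libraries are paired; same-numbered deviations correlated at 0.0586 to 0.366. With the replicate block, alpha and gamma calls were 11, 16, 3, 1, 12 and 0 against 9, 12, 2, 1, 11 and 0, and beta calls stayed at 2, 3, 0, 0, 1 and 0.

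The 21 pairs of named member and contrast were followed through the alternative settings, which gave 353 combinations of pair and setting. Of these, 326 kept direction and side of the threshold, 27 kept direction only and 0 reversed. The pairs were picked because they were called, and some settings only left out a library of a group not compared. The numbers are therefore no measure of how robust the calls are. Scaled by total counts, the median of all genes moved to 0.22 for TSA in wild type and 0.19 in TKO, and with the upper quartile to 0.16 and 0.11. Calls lost by 1 or more scalings were those of Pcdhgb8 and Pcdhga12 in wild type, Pcdhb14, Pcdhga1, Pcdhga7 and Pcdhgb7 in TKO, and Pcdhga1 for both changes. Calls gained by 1 or more were those of Pcdhga3, Pcdhga5, Pcdhgb2 and Pcdhac2 in wild type and of Pcdhgb2 and Pcdhga6 in TKO, all higher with TSA. The ratio of the gamma sums, an alternative chosen after seeing the data, moved from 0.836 to 0.962 in wild type with total counts, and in TKO from 0.80 to 0.886 with total counts and 0.843 with the upper quartile.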

Other observations

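Protocadherins outside the clusters are encoded by single genes spread over the genome, and 11 of 12 listed were tested. With TSA 5 rose and 0 fell in wild type, and 8 rose and 0 fell in TKO, beside 27.0% and 30.8% of tested genes called higher. Pcdh8, a gene of somite and synapse adhesion, was at 1.5 and 0.972 CPM in wild type with DMSO, 6.04 and 8.76 with TSA, 0.889 and 0.291 in TKO with DMSO, and 10.0 and 17.3 with TSA. It rose by 2.56 ± 0.41 and 4.49 ± 0.45 on the log2 scale (adjusted p 0.000507 and 1.52e-05 by edgeR). Pcdh9, Pcdh10 and Pcdh20 rose in both genotypes by 2.48 to 3.95 on the log2 scale.

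Between the genotypes, 5 of these 11 were lower in TKO than in wild type with DMSO and 0 higher, beside 10.7% and 9.62% of tested genes. Pcdh1 had a log2 difference of -1.39 ± 0.23 there (edgeR adjusted p 0.00171). It also differed between genotypes in its TSA response, by the interaction test (1.46 ± 0.30, edgeR adjusted p 0.0450), a call made under 2 of 4 scalings. Of the listed genes, Pcdh1 and Pcdh12 also lie within 500 kb of the clusters. Whether the 2 classes of protocadherin genes differ was not tested.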
